A study of Mus musculus with 12 samples.

Results

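The response of control mandibular fibrochondrocytes to serum starvation was taken from the 6 control libraries among 12 RNA-seq libraries, 3 serum-starved against 3 serum-supplemented, and was described over all genes. The cells came from the mandibular condylar cartilage of C57BL/6J pups aged 10 to 14 days, were immortalized by retroviral transfer of hTERT (the catalytic subunit of telomerase) with GFP, and carry a full-length NG2/CSPG4, a transmembrane proteoglycan that binds type VI collagen. The line is 1 clone picked for its growth rate, so the replicates are cultures of that clone and the p-values measure the spread between its cultures. Serum-supplemented cells were grown in AMEM with heat-inactivated fetal bovine serum, glutamine, penicillin and Plasmocin, and starved cells in Optimem with the same additions and no serum. The base medium therefore changed together with the serum, and these changes cannot be told apart. The sources used here do not give the length of the starvation. The remaining 6 libraries, from the NG2|EDmut line with a truncated NG2/CSPG4 ectodomain in the same media and at the same numbers, entered the fit for its estimate of the spread and are set beside the control cells only where the difference itself was tested.

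Serum supplies growth factors, lipoproteins and lysophospholipids. Growth factors act through receptor tyrosine kinases, ERK and PI3K to induce immediate early genes and the D cyclins, and the release of E2F factors then opens the genes of DNA synthesis. PI3K and AKT hold FOXO factors out of the nucleus, mTORC1 promotes ribosome production and holds back TFEB, the activator of lysosome genes, and lipoprotein cholesterol holds back SREBP2, the activator of cholesterol synthesis. Lysophospholipids act through small GTPases and actin on SRF, which drives contractile genes. Fibrochondrocytes of the mandibular condyle are a mixed fibrous and cartilaginous cell that can form type I and type II collagen matrix.

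The control libraries held 60277881 to 72413007 estimated counts, of which ribosomal RNA took 0.490% to 4.82% and mitochondrial transcripts 2.21% to 5.18%. All 12 markers of fibroblasts and mesenchymal cells were at 1 FPKM or more, with summed levels of 5552 to 6907 FPKM in serum and 5769 to 6689 FPKM under starvation. Of 10 markers of mature chondrocytes only 2 reached 1 FPKM, so by these markers the line does not carry the profile of a mature chondrocyte in either medium. No marker of endothelium out of 10, 2 of 12 macrophage, 5 of 10 neural and Schwann cell and 2 of 10 epithelial markers reached that level. The summed epithelial level was 6.23 to 12.4 FPKM in serum and 0.498 to 11.4 FPKM under starvation, and that of neural and Schwann cells 16.5 to 23.8 and 12.4 to 18.5 FPKM. Their part in the results was not tested. Serum replicate 1 stood apart from the other serum libraries. Its log CPM correlated at 0.970, 0.956 and 0.962 with starved replicates 1 to 3 and at 0.959 and 0.954 with serum replicates 2 and 3. Serum replicates 2 and 3 correlated at 0.976 with each other. Serum replicate 1 is therefore described with each gene group, and what set this library apart was not tested.

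Of 18703 tested genes, 1767 (9.45%) rose and 2012 (10.8%) fell under starvation (edgeR's quasi-likelihood test, adjusted p under 0.05), 20.2% in all. At 2-fold or more, 599 genes (3.2%) rose and 838 (4.48%) fell, and past 4-fold 109 rose and 300 fell. The median log2 fold change over all tested genes was 0.04. Counts of called list members below are to be read beside the 9.45% of rises and 10.8% of falls over all tested genes. The starved and serum groups did not overlap, higher under starvation, for 15.7% of tested genes and, lower, for 12.3%. Of the 3779 called genes 2642 had groups that did not overlap and a mean of at least 10 CPM in the higher group. The counts of non-overlap given below are among called members. They repeat a trait common among called genes and are not separate support. Without serum replicate 1, 3342 genes (17.3%) rose and 3048 (15.8%) fell, and 3648 of the 3779 genes called with it were called again with none changing sign. Among genes tested both with and without this library there were then 1307 rises and 1176 falls at 2-fold or more. The larger share of falls at that size, seen with all libraries, thus turned. Without serum replicate 2 the counts were 1046 and 1179, and without starved replicate 3 the count of rises was 993. In a fit of the 6 control libraries alone 394 genes rose and 401 fell, and in a fit of the same libraries without serum replicate 1, chosen after seeing the data, 1939 rose and 2326 fell.

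**Figure D1:**
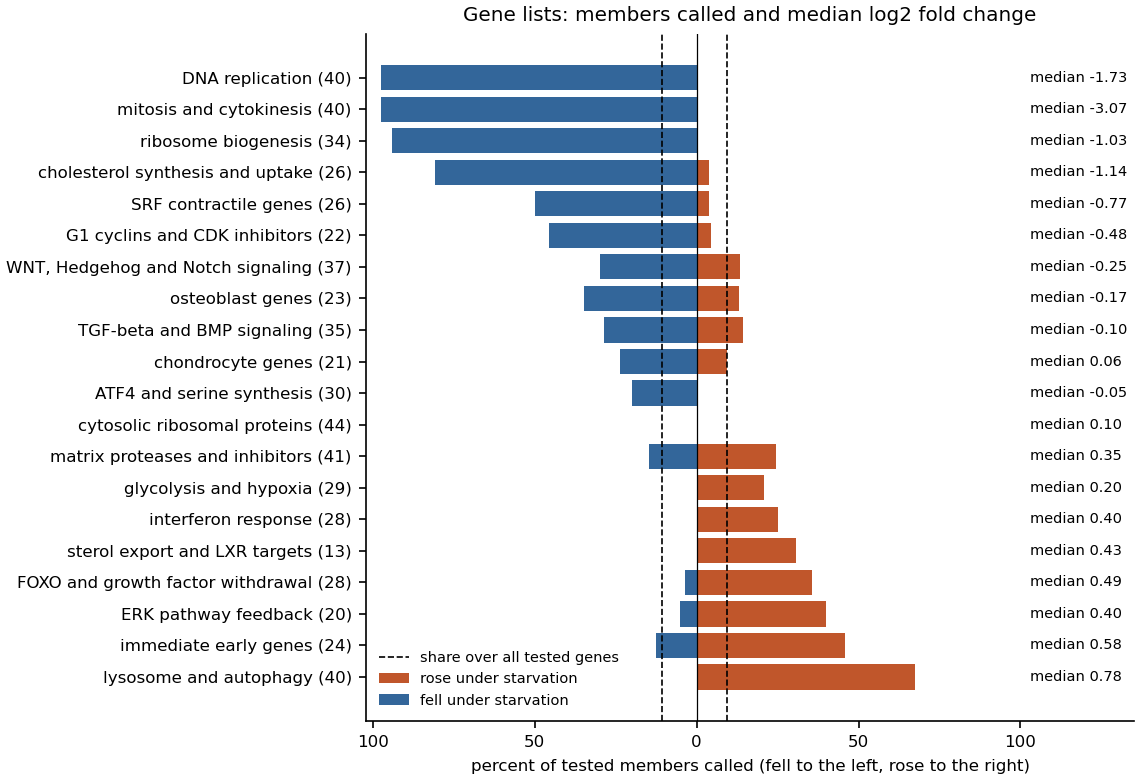
Share of the tested members of 20 gene lists that fell (left) or rose (right) under starvation in control cells, in percent, with the number of tested members after each name, the median log2 fold change of the list at the right edge, and dashed lines at the share over all tested genes (10.8% fell, 9.45% rose). DNA replication, mitosis and ribosome biogenesis reach furthest to the left, and lysosome and autophagy genes furthest to the right.

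In these 4 lists no member was called against the direction of its list by edgeR, DESeq2 or limma, and at an unadjusted p under 0.05 in edgeR this held for all but 1 mitosis gene.

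The genes of mitosis and cytokinesis gave the deepest fall of any list. Of 40 tested members 39 fell and none rose, with log2 fold changes from -1.62 to -3.53 on the log2 scale and a list median of -3.07 beside 0.04 over all genes. In all 39 the 3 starved libraries lay below the 3 serum libraries. Their promoters are shown because 24 of 35 windows (68.6%) of the members found in RefSeq held TTTGAA on either strand, the core of the cell cycle homology region through which the DREAM and MuvB complexes hold mitotic genes silent in resting cells, beside 17.9% of all 32851 promoter windows. A match of these letters is a description of the sequence and not a measured site. For 33 of the 40 members RefSeq gave a promoter (GRCm38.p6), and the 150 bases before the start are printed here for 2 of those that fell furthest, with TTTGAA in capitals.
Mki67 (chr7:135716380-135716529, minus strand): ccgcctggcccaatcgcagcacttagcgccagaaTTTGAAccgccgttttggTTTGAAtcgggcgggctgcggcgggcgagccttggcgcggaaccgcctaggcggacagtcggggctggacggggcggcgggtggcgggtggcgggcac
Ect2 (chr3:27153879-27154028, minus strand): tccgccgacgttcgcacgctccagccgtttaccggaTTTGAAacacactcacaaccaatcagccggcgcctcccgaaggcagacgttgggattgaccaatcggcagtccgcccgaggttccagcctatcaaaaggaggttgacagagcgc

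Mki67 (ENSMUSG00000031004, chr7:135689784-135716361), which encodes the proliferation antigen Ki-67 that coats mitotic chromosomes, was at 41.3, 348 and 287 CPM (counts scaled to a common library size by TMM) in serum replicates 1 to 3 and at 25.5, 16.8 and 16.3 CPM in starved replicates 1 to 3. Serum replicates 2 and 3 were the high ones, and serum replicate 1 sat just above the starved libraries without overlapping them. This was -3.53 on the log2 scale (standard error 0.58, adjusted p = 0.00195), and -4.02 without serum replicate 1. Ect2, the exchange factor that switches on RhoA at the cleavage furrow, read 21.6, 142 and 133 CPM in serum and 10.8, 7.93 and 7.03 CPM under starvation, a change of -3.52 on the log2 scale (adjusted p = 0.0012). Cyclin A2 (Ccna2) went from 32.02, 279.97 and 349 to 25.7, 20.7 and 12.4 CPM (log2 fold change -3.49, adjusted p = 0.00329). Both genes repeat the order of Mki67, with serum replicate 1 between the groups and nearer the starved one. Falls of like size were seen in Prc1 (-3.52), which bundles the midzone microtubules, in Kif23 (-3.48) and Kif4 (-3.34), kinesins of the central spindle and chromosome arms, in Aurkb (-3.44), the kinase of the chromosomal passenger complex, in Cenpf (-2.99) at the kinetochore and in Knstrn (-2.69), its small spindle-binding partner, with adjusted p from 0.00113 to 0.00293. Pttg1, the securin that guards separase, was the single tested member that was not called.

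Apart from Car3, Padi2 and Wif1, the 15 deepest falls of genes with a mean of at least 10 CPM in the higher group were all of this kind or belonged to DNA repair and replication. Depdc1a (-3.77), the kinetochore protein Ska1 (-3.44), the helicase Pif1 (-3.49), the DNA glycosylase Neil3 (-3.67), the endonuclease Ankle1 (-3.64) and the mitotic regulator Pimreg (-3.46) fell as deeply.

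DNA replication genes fell as a group but less deeply. Of 40 tested members 39 fell, with a list median of -1.73 and falls from -0.84 to -3.32, and only Rfc4, a subunit of the clamp loader, was not called. Here serum replicate 1 was level with the starved libraries, so only 10 of the 39 had groups that did not overlap. Mcm10, which helps to open the replicative helicase, was at 8.61, 46.7 and 37.7 CPM in serum and 6.04, 2.90 and 5.11 CPM under starvation (log2 fold change -2.73, standard error 0.48, adjusted p = 0.00274). The thymidine kinase gene Tk1, which salvages thymidine for DNA synthesis, read 15.8, 136 and 168 CPM and 13.4, 11.9 and 6.72 CPM (log2 fold change -3.32, adjusted p = 0.00379). In both genes serum replicates 2 and 3 stood far above the other 4 libraries. Gins1, of the helicase complex, fell by 2.23 and Pola1, the catalytic subunit of the priming polymerase, by 2.08 on the log2 scale. The count of falls depends on serum replicates 2 and 3, since it was 20 without the former and 25 without the latter, and 2 with the 6 control libraries alone. Without serum replicate 1 all 40 fell, with a median of -2.16.

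An E2F site, searched as TTTCCCGC or TTTGGCGC on both strands, occurred in 11 of 37 promoter windows (29.7%) of the 32 replication genes that RefSeq covers and in 1.57% of all windows. Pola1 is printed as an example that fell, with the match in capitals on the reverse strand, as 150 bases before its start.
Pola1 (chrX:93632156-93632305, minus strand): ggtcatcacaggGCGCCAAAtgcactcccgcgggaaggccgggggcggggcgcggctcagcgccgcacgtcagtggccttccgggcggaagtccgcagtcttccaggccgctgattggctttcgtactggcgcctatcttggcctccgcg

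Of 22 cyclins, kinases and inhibitors of G1, 10 fell and 1 rose. Myc, a driver of growth and ribosome genes, was at 85.4, 189.9 and 189 CPM in serum and at 54.2, 54.9 and 54.2 CPM under starvation, a log2 fold change of -1.51 (adjusted p = 0.00185). Cyclin D1 (Ccnd1), the sensor of growth factor input, was at 611, 579 and 505 CPM in serum and 383, 345 and 394 CPM under starvation (log2 fold change -0.60, adjusted p = 0.00322). For Ccnd1 all 3 serum libraries were high and replicate 1 was the highest of them, unlike Ccne2 (cyclin E2), where 6.79, 41.1 and 48.1 CPM in serum placed replicate 1 beside the starved 5.49, 5.86 and 4.14 CPM (log2 fold change -2.63, adjusted p = 0.00469). Cdk2 fell by 1.28. The inhibitors Cdkn1a, Cdkn1b and Cdkn1c, which brake the cyclin kinases, were not called in either direction. Without serum replicate 2 the list had 6 falls in place of 10, and without serum replicate 1 it had 3 rises and 15 falls.

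**Figure D2:**
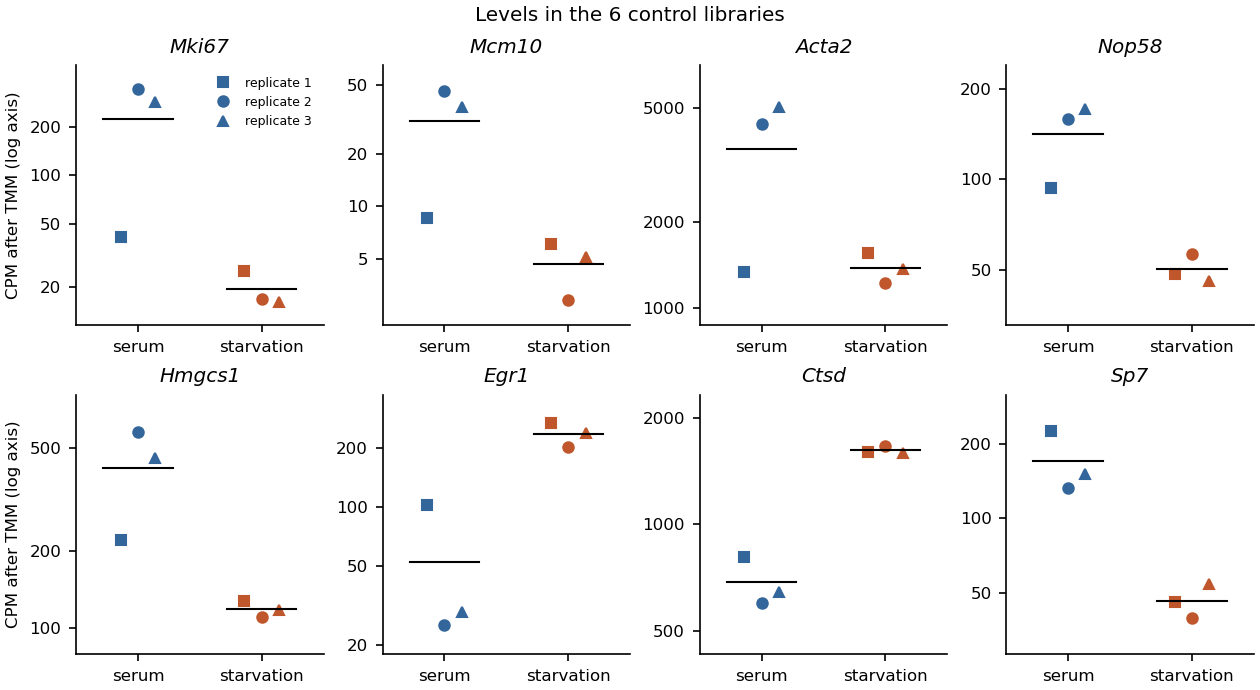
CPM after TMM on log axes for 8 genes in the 6 control libraries, with replicates 1 to 3 as squares, circles and triangles and group means as lines. Serum replicate 1 lies near the starved libraries for Mki67, Mcm10 and Acta2, between the groups for Nop58, Hmgcs1 and Egr1, nearer serum replicates 2 and 3 for Ctsd and beyond them for Sp7.

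Genes of ribosome production fell, and none of the ribosomal protein genes passed the test. Of 34 tested genes of ribosome biogenesis 32 fell and none rose, with falls from -0.38 to -1.81, a list median of -1.03 and no overlap between the groups in any of the 32. Nop58, a core protein of the box C/D particles that methylate ribosomal RNA, read 93.2, 159 and 171 CPM in serum and 48.5, 56.4 and 45.8 CPM under starvation. All 3 serum libraries lay above the starved ones, replicate 1 about midway. This was -1.49 on the log2 scale (standard error 0.19, adjusted p = 0.000495). Rrp1b, a nucleolar processing factor, went from 39.7, 53.4 and 49.6 to 25.1, 19.5 and 21.3 CPM (log2 fold change -1.12, adjusted p = 0.000422). The nucleolar GTPase Gnl3 fell by 0.86 and the ribosomal RNA methyltransferase Nop2 by 1.21 on the log2 scale. Of 44 cytosolic ribosomal protein genes 0 were called by edgeR, DESeq2 or limma and 2 were higher at an unadjusted p under 0.05, with a median of 0.10, and 3 rose without serum replicate 1. At 2-fold or more 18 of the 32 falls were left.

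Genes of cholesterol synthesis and uptake fell. Of 26 tested members 21 fell, from -0.65 to -2.22, with a median of -1.14, and Tm7sf2, a sterol reductase, was the only one to rise. The sterol regulatory element TCACNCCAC was found in 1 of 22 promoter windows (4.55%, 18 members covered) and in 1.24% of all windows, and that window belongs to Hmgcs1. Its 150 bases before the RefSeq start are printed with the element in capitals.
Hmgcs1 (chr13:119690201-119690350, plus strand): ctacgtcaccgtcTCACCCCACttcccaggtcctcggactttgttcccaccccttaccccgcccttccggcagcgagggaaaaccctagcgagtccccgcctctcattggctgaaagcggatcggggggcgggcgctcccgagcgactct

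Hmgcs1 (ENSMUSG00000093930, chr13:119690379-119708260), the synthase that makes HMG-CoA, was at 219.96, 577 and 459 CPM in serum replicates 1 to 3 and at 127, 111 and 117 CPM in starved replicates. The groups did not overlap, and serum replicate 1 was the lowest of its group. This was -1.82 on the log2 scale (standard error 0.27, adjusted p = 0.0013). The sterol carrier Stard4 fell by 2.09 on the log2 scale, from 38.9, 123 and 90.4 to 22.5, 18.5 and 18.03 CPM (adjusted p = 0.00151). Without serum replicate 2 the count of falls was 13, and with the 6 control libraries alone it was 8. Of 20 genes of fatty acid synthesis 2 fell, near the share over all genes, and without serum replicate 1 there were 7 falls and 3 rises. On the side of sterol export and LXR targets 4 of 13 rose, with 8 rises without serum replicate 1 and 1 with the 6 control libraries alone. The lysosomal sterol carrier Npc2 went from 252, 229.8 and 288 to 467, 582 and 502 CPM (log2 fold change 1.01, adjusted p = 0.00053), with no overlap and serum replicate 1 inside its group. The ubiquitin ligase Mylip rose by 1.39 and the cholesterol exporter Abca1 by 1.68, both with serum replicate 1 above the other serum libraries.

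Contractile genes driven by SRF fell on the strength of serum replicates 2 and 3. Of 26 tested members 13 fell and 1 rose, with a median of -0.77. Smooth muscle actin (Acta2), among the 5 genes of highest level that fell at least 2-fold, was at 1338, 4397 and 5048 CPM in serum and 1559.7, 1222 and 1373 CPM under starvation. Serum replicate 1 lay inside the starved range, so the groups overlap. On the log2 scale it changed by -1.38 (adjusted p = 0.0293), and the call was lost without any one of serum replicates 2 and 3 or starved replicates 1 to 3. Myl9, the regulatory light chain of myosin (-1.67), and tropomyosin Tpm1 (-1.11) had the same overlap and lost their calls in the same way. Calponin (Cnn1), which binds actin in smooth muscle, was at 10.6, 93.9 and 126 CPM in serum and 7.41, 8.43 and 6.44 CPM under starvation (log2 fold change -3.37, adjusted p = 0.00441). Its groups did not overlap, nor did those of the actin gene Actg2 (-2.32) and the LIM protein Csrp1 (-1.50), although serum replicate 1 was close to the starved libraries in each. Zyxin (Zyx), of focal adhesions and stress fibers, went the other way, from 236, 311 and 319 to 575, 531 and 531 CPM (log2 fold change 0.92, adjusted p = 0.000643). The list held 5 falls without serum replicate 2 or without serum replicate 3, 7, 6 and 4 without starved replicates 1, 2 and 3, and 1 with the 6 control libraries alone. The CArG box, the SRF site, was found in 4 of 28 promoter windows (14.3%) and in 1.63% of all. The tubulins Tuba1b (355, 1957 and 2077 CPM in serum, 375, 371 and 356 CPM under starvation, log2 fold change -1.99) and Tubb5 (-1.37) showed the same order of libraries. Tubulin reads may be shared with related genes and pseudogenes, and Tubb5 lost its call without each of the same 5 libraries.

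Of 20 YAP and TEAD targets 1 rose and 2 fell, no more than the 9.45% and 10.8% over all tested genes. Without serum replicate 1 the rises were 2. Ccn2, a matricellular growth factor of connective tissue, was at 126, 122 and 102 CPM in serum and 54.9, 45.6 and 44.2 CPM under starvation (log2 fold change -1.27, adjusted p = 0.000552), with all serum libraries high. F3, tissue factor, rose from 52.1, 29.2 and 33.2 to 109.8, 114 and 101 CPM (log2 fold change 1.51).

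Immediate early genes, which serum induces within minutes in resting cells, were higher in the starved control cells. Of 24 tested 11 rose and 3 fell, with a median of 0.58, and none of the 11 had overlapping groups. Egr2 (ENSMUSG00000037868, chr10:67535475-67542188), a zinc finger factor, was at 10.5, 4.36 and 3.78 CPM in serum replicates 1 to 3 and at 52.01, 41.5 and 57.02 CPM in starved replicates, which put the log2 fold change at 3.01 (standard error 0.34, adjusted p = 0.000336). Fos, a subunit of AP-1, was at 5.30, 2.22 and 1.59 CPM in serum and 16.3, 16.8 and 15.9 CPM under starvation (log2 fold change 2.43, adjusted p = 0.00105). Egr1 read 103, 25.1 and 29.2 CPM and 266, 202 and 236 CPM (log2 fold change 2.16, adjusted p = 0.00469). In each of the 3 genes serum replicate 1 was the highest serum library and stayed below every starved one. The nuclear receptor Nr4a1 was tighter, at 22.6, 23.9 and 21.7 CPM in serum and 51.9, 51.4 and 57.2 CPM under starvation (log2 fold change 1.23, adjusted p = 8.45e-05), with serum replicate 1 inside its group. Egr3 rose by 2.17 and Arc, which remodels actin and endocytosis at neuronal synapses, by 2.63.

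Feedback genes of the ERK pathway followed. Of 20 tested 8 rose and 1 fell, with a median of 0.40. The ERK phosphatase Dusp6 was at 26.1, 10.01 and 8.20 CPM in serum and 67.7, 50.99 and 64.8 CPM under starvation (log2 fold change 2.05, standard error 0.36, adjusted p = 0.00282). Spry4, which blocks receptor signaling to RAS, was at 1.43, 1.66 and 1.83 CPM and 4.59, 4.52 and 4.50 CPM (log2 fold change 1.47, adjusted p = 0.000442). The EGF receptor inhibitor Errfi1 rose by 1.37 and Phlda1 by 0.81. For Spry4 and Phlda1 serum replicate 1 was the lowest serum library, and for Dusp6 and Errfi1 the highest. With the 6 control libraries alone 6 immediate early and 4 feedback genes rose.

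Genes that FOXO factors switch on when growth factors are withdrawn rose in part. Of 28 tested 10 rose and 1 fell, with a median of 0.49, and without serum replicate 1 the counts were 18 and 1. The stress-responsive sestrin Sesn1, which restrains mTORC1, was at 86.4, 69.4 and 63.97 CPM in serum and 245, 226 and 251 CPM under starvation, with no overlap and with 1.72 as log2 fold change (standard error 0.12, adjusted p = 1.36e-05). The proapoptotic Bcl2l11 (BIM) rose by 1.68, from 17.03, 11.03 and 9.76 to 40.98, 33.7 and 46.9 CPM. Trib1, a pseudokinase adaptor, rose by 1.10. A forkhead site, GTAAACA, occurred in 5 of 30 promoter windows (16.7%) of 23 members and in 3.65% of all windows.

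Lysosome and autophagy genes rose together. Of 40 tested 27 rose, from 0.46 to 1.36 on the log2 scale, the list median was 0.78, and in none of the 27 did the groups overlap. Cathepsin D (Ctsd), the aspartic protease of lysosomes and 1 of the 5 genes of highest level that rose at least 2-fold, was at 810.3, 602 and 646 CPM in serum and 1605, 1666 and 1591 CPM under starvation. Every starved library lay above every serum library, replicate 1 included, and the change was 1.24 on the log2 scale (standard error 0.13, adjusted p = 0.000209). Lamp1, the main glycoprotein of the lysosomal membrane, went from 1177, 984 and 1069 to 1899, 2137 and 2037 CPM (log2 fold change 0.91, adjusted p = 0.000473). The protective protein Ctsa rose by 0.86. Gpnmb, a glycoprotein of melanosomes and lysosomes, was at 849, 639 and 638 CPM in serum and 1748, 1814 and 1927 CPM under starvation (log2 fold change 1.37, adjusted p = 0.000164). Most of these rises were under 2-fold, and 4 of the 27 reached it. With the 6 control libraries alone 11 rose.

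Of 16 genes of metallothioneins, zinc and iron 4 rose and 1 fell, with 2 falls without serum replicate 3 or starved replicate 1. Ferritin heavy chain (Fth1) was at 1486, 1020.3 and 1293 CPM in serum and 2343, 3091 and 2423 CPM under starvation (log2 fold change 1.05, adjusted p = 0.00105), and the light chain Ftl1 rose by 0.85. Both have processed pseudogenes with which reads may be shared. The metallothionein Mt1, which binds zinc and copper, rose by 0.99. The glutathione transferase Gstm1 went from 77.4, 57.5 and 68.2 to 205, 285 and 222 CPM (log2 fold change 1.81, adjusted p = 0.000117), and Selenop, a secreted selenium carrier, rose by 1.66, whereas 6 of the 27 NRF2 and antioxidant genes fell and 4 rose. Without serum replicate 1 the balance turned, with 8 rises and 7 falls. The count of falls was 1 without serum replicate 2 and 3 without serum replicate 3 or starved replicate 1. Of 29 genes of glycolysis and hypoxia 6 rose, among them aldolase (Aldoa) at 360.2, 408 and 330.1 CPM in serum and 685, 816 and 738 CPM under starvation (log2 fold change 1.03, adjusted p = 0.000292).

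Of 30 ATF4 and serine synthesis genes 6 fell, and Atf4 itself was not called. The 4 with the smallest adjusted p all belong to serine and one-carbon metabolism. Mitochondrial Mthfd1l was at 122, 137 and 112 CPM in serum and 61.3, 61.9 and 71.3 CPM under starvation (log2 fold change -0.93, adjusted p = 0.000402), Shmt2 fell by 0.89, Psat1 by 0.69 and Mthfd2 by 0.67. For Shmt2, with 462, 386 and 376 CPM in serum and 196, 234 and 229 CPM under starvation, serum replicate 1 was the highest library of all. Without serum replicate 1 the direction of the list turned, with 12 rises and 5 falls. Of 23 endoplasmic reticulum chaperone genes 1 was called, and 5 rose without serum replicate 1. Of 28 interferon response genes 7 rose, 3 without serum replicate 2. The class I antigens H2-K1 (0.91) and H2-D1 (0.69), which share sequence with each other, had the smallest adjusted p of that list.

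Matrix genes went in both directions. Of 41 matrix proteases and inhibitors 10 rose and 6 fell, 3 without starved replicate 2. AP-1 sites, TGANTCA, stood in 5 of 26 promoter windows (19.2%) of 23 members and in 7.81% of all windows, and the 2 promoters printed belong to members that changed in opposite directions.
Mmp13 (chr9:7272364-7272513, plus strand): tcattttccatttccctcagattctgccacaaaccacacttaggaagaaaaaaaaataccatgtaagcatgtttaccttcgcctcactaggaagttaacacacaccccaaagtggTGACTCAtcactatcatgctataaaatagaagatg
Plaur (chr7:24462333-24462482, plus strand): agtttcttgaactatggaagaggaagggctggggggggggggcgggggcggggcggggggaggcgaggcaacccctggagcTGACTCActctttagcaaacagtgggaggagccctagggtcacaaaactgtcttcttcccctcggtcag

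Mmp13 (ENSMUSG00000050578, chr9:7272514-7283331), the collagenase of hypertrophic cartilage that cleaves type II collagen, was at 17.4, 5.89 and 8.31 CPM in serum and 82.5, 78.4 and 76.3 CPM under starvation. The groups did not overlap, serum replicate 1 was the highest of its group, and the change was 2.91 on the log2 scale (standard error 0.39, adjusted p = 0.000732). Plaur, the urokinase receptor, fell from 19.000, 29.9 and 30.2 to 10.5, 11.9 and 9.60 CPM (log2 fold change -1.30, adjusted p = 0.000552). The serine protease Htra1, which cleaves fibronectin and proteoglycans, went from 152, 142 and 150.5 to 301, 360.2 and 341 CPM (log2 fold change 1.17, adjusted p = 5.78e-05), and Adamts7, which cleaves COMP, rose by 1.58.

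Of 11 fibrillar collagens 1 rose and 1 fell, near the 9.45% and 10.8% over all tested genes, and 3 rose without serum replicate 1. Type II collagen (Col2a1), the collagen of hyaline cartilage, was at 31.8, 46.9 and 38.9 CPM in serum and 10.6, 12.98 and 11.96 CPM under starvation (log2 fold change -1.73, adjusted p = 0.00186), with all 3 serum libraries above. The type I chains Col1a1 and Col1a2 were not called. The basement membrane chains Col4a1 and Col4a2 rose, Col4a1 from 589, 602 and 469 to 1369, 901 and 1403 CPM (log2 fold change 1.15, adjusted p = 0.0016), while nephronectin (Npnt), a ligand of integrin alpha 8 beta 1, fell from 300.01, 1365 and 810.3 to 103, 104 and 106 CPM (log2 fold change -2.99, adjusted p = 0.000744). Of 41 collagen-modifying and elastic fiber genes 9 rose and 5 fell. The lysyl hydroxylase Plod1 was at 105, 101 and 85.7 CPM in serum and 194, 194 and 214 CPM under starvation (log2 fold change 1.04, adjusted p = 0.00014), and the prolyl hydroxylase subunit P4ha1 rose by 0.93. Among matricellular proteins 2 of 31 rose and 6 fell, with 6 rises and 8 falls without serum replicate 1 and 5 rises by DESeq2 or by limma. Thrombospondin 1 (Thbs1) fell by 0.81 and tenascin N (Tnn) by 2.38. Matrilin 2 (Matn2) rose by 1.21 and Spon2, a secreted spondin, from 4.20, 2.93 and 3.04 to 37.5, 26.9 and 35.3 CPM (log2 fold change 3.29, adjusted p = 7.02e-06).

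Osteoblast genes went in both directions. Of 23 tested 8 fell and 3 rose, with a median of -0.17. Without serum replicate 1 there were 7 falls and 8 rises, so that the direction of the list turned, and without starved replicate 2 the falls were 4. Osterix (Sp7), the factor that commits cells to bone, was at 226, 132 and 151 CPM in serum and 45.7, 39.5 and 54.3 CPM under starvation (log2 fold change -1.87, standard error 0.19, adjusted p = 0.000193). Phospho1, a phosphatase that starts mineral formation, was at 117, 171 and 150.3 CPM and 23.7, 25.05 and 49.2 CPM (log2 fold change -2.16, adjusted p = 0.000425). The pyrophosphate exporter Ank and the pyrophosphate-making Enpp1, both of which restrain mineralization, rose. Ank went from 171, 153 and 148 to 417, 369 and 455 CPM (log2 fold change 1.39, adjusted p = 5.78e-05) and Enpp1 from 14.7, 12.6 and 10.9 to 75.2, 44.97 and 76.3 CPM (log2 fold change 2.36, adjusted p = 9.81e-05). In none of these 4 genes did a serum library reach the starved range, and for Sp7 replicate 1 was the highest of all.

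Of 21 chondrocyte genes 5 fell and 2 rose, and 14 were not called. The rises were 4 without serum replicate 1 and 1 without starved replicate 3. Sox9, the master factor of cartilage, was at 33.9, 28.8 and 29.95 CPM in serum and 49.2, 47.1 and 47.2 CPM under starvation (log2 fold change 0.63, adjusted p = 0.00292). The parathyroid hormone receptor Pth1r fell from 258, 154 and 161 to 73.4, 95.2 and 86.9 CPM (log2 fold change -1.16, adjusted p = 0.00161), and Runx3 by 0.82. Aggrecan (Acan) and type X collagen (Col10a1) were not called. The summed level of the 10 mature chondrocyte markers was 11.9 to 27.4 FPKM in serum and 12.3 to 12.9 FPKM under starvation.

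Among WNT and BMP genes both effectors and inhibitors fell. Of 37 WNT, Hedgehog and Notch genes 11 fell and 5 rose. The secreted WNT inhibitor Wif1 was at 18.4, 17.5 and 9.52 CPM in serum and 1.79, 0.654 and 1.53 CPM under starvation (log2 fold change -3.50, standard error 0.36, adjusted p = 0.000212). Tcf7, a nuclear effector of WNT, went from 99.6, 128 and 85.3 to 24.1, 27.3 and 33.7 CPM (log2 fold change -1.88, adjusted p = 8.42e-05), and Dkk3, a secreted protein of the Dickkopf family, rose from 203, 224 and 223 to 681, 624 and 748 CPM (log2 fold change 1.66, adjusted p = 0.000345). For these 3 genes serum replicate 1 lay with the other serum libraries. Of 35 TGF-beta and BMP genes 10 fell, all without overlap, and 5 rose. The rises were 1 without serum replicate 3 or without starved replicate 1, and 0 without starved replicate 3 or with the 6 control libraries alone. The activin subunit Inhba was at 128, 187 and 143 CPM in serum and 48.8, 53.6 and 54.1 CPM under starvation (log2 fold change -1.55, adjusted p = 8.32e-05). Its antagonist follistatin (Fst) fell by 1.08 and the decoy receptor Bambi by 1.42.

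Of 20 genes of PDGF and FGF ligands, receptors and binding proteins 4 fell and 3 rose, beside 10.8% and 9.45% of all genes. The rises were 6 without serum replicate 1, 1 without starved replicate 1 or 3 and 0 with the 6 control libraries alone. Pdgfa, a ligand of the PDGF alpha receptor, was at 33.2, 115 and 126 CPM in serum and 13.8, 18.9 and 17.2 CPM under starvation (log2 fold change -2.46, adjusted p = 0.00123). Pdgfc fell by 0.82 and the receptor Fgfr2 by 1.05. Igfbp5, a binding protein of the insulin-like growth factors, rose from 23.8, 17.8 and 15.6 to 62.2, 59.6 and 64.4 CPM (log2 fold change 1.70, adjusted p = 0.00162). The PDGF receptors Pdgfra and Pdgfrb were not called.

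Migration genes, a subject of the study, were mixed. Of 37 genes of small GTPases and migration 8 rose and 5 fell (8 falls without serum replicate 1), and of 41 guidance genes 8 rose and 7 fell. Over all tested genes 9.45% rose and 10.8% fell, and the falls of the migration list were near that share. Rhob, an endosomal and stress-responsive small GTPase, was at 127, 141 and 139 CPM in serum and 242, 253 and 253 CPM under starvation (log2 fold change 0.88, standard error 0.09, adjusted p = 0.000156). The RAC-inhibiting Arhgap24 went from 18.9, 21.9 and 18.004 to 50.003, 47.9 and 53.3 CPM (log2 fold change 1.36, adjusted p = 0.000117). Cdc42ep3, an effector of CDC42, fell by 1.78. Of the guidance genes Sema5a rose by 1.62 and the semaphorin and VEGF coreceptor Nrp2 fell from 665, 817 and 516 to 297, 192 and 327 CPM (log2 fold change -1.29, adjusted p = 0.00161). The count of guidance genes that rose was 5 without starved replicate 1, 4 without starved replicate 3 and 4 without NG2|EDmut serum replicate 3, and that of guidance genes that fell was 4 without serum replicate 2 or without starved replicate 1 or 2. Of 34 integrins and focal adhesion genes 3 rose, near the share over all tested genes, and 6 fell. Without serum replicate 1 there were 6 rises and 10 falls. The falls were 2 without serum replicate 2 or starved replicate 2, and 3 without starved replicate 3. Integrin beta 5 (Itgb5), a vitronectin receptor subunit, was at 518, 401 and 422 CPM in serum and 1091, 1061 and 1109 CPM under starvation (log2 fold change 1.28, adjusted p = 8.42e-05).

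Cspg4 (ENSMUSG00000032911, chr9:56865033-56899870), the gene of NG2, was at 178, 135 and 84.2 CPM in serum and 96.7, 53.9 and 102 CPM under starvation. The groups overlapped and serum replicate 1 was the highest library. The change of -0.66 on the log2 scale (standard error 0.29, adjusted p = 0.138) did not pass the test, although it passed without serum replicate 3.

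Several of the largest single changes belonged to none of these groups. Carbonic anhydrase 3 (Car3) gave the deepest fall by the naming rule, from 20.1, 38.6 and 38.1 CPM in serum to 0.682, 0.918 and 1.35 CPM under starvation (log2 fold change -5.03, standard error 0.33, adjusted p = 1.01e-05). Serum replicate 1 was the lowest of its group and still far above every starved library. Padi2, which converts arginine to citrulline, went from 8.99, 59.9 and 27.9 to 1.49, 1.61 and 1.23 CPM (log2 fold change -4.48, adjusted p = 0.000473). The largest rise by the same rule was that of the carboxylesterase Ces1a, which has close copies beside it, from 1.13, 1.24 and 1.38 to 18.2, 14.4 and 17.2 CPM (log2 fold change 3.73, adjusted p = 0.00123). The aminopeptidase Enpep, which trims angiotensin II, rose from 16.8, 19.99 and 19.2 to 152, 111 and 139 CPM (log2 fold change 2.85, adjusted p = 1.01e-05), and Dio2, the deiodinase that activates thyroid hormone, from 2.39, 6.57 and 7.72 to 35.3, 25.4 and 35.4 CPM (log2 fold change 2.53, adjusted p = 0.00143). For Enpep and Dio2 no serum library approached the starved ones, and replicate 1 was the lowest of all. Further rises were those of the dynein chain Dync1i1 (2.68), the Nogo receptor Rtn4r (2.96), the plexin domain protein Plxdc1 (2.95), Rab3il1 (2.48), Evi2a (2.57) and the trypsin gene Try5 (2.46), which belongs to a family of near copies. Among cytokine genes osteoprotegerin (Tnfrsf11b), the decoy receptor that holds back osteoclasts, fell by 2.69. The clock repressor Bhlhe41 rose by 1.15. Since whole cultures were sequenced, fewer cells in a state and less RNA per cell cannot be told apart for any of these genes.

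Serum replicate 1 was placed between serum and starvation gene by gene. The scale has 0 at the mean of serum replicates 2 and 3 and 1 at the mean of the starved libraries. The genes are the 2483 called at 2-fold or more without this library and tested both with and without it. These values are a description, since the genes were chosen on the other 5 libraries. Its median position was 0.72, with 0.65 over the 1307 genes that rose and 0.78 over the 1176 that fell. The position differed widely between gene groups. It was 1.03 for SRF contractile genes and 0.98 for DNA replication, where the library read like a starved one. It was 0.82 for cholesterol genes and 0.76 for mitosis, where the library was nearer the starved ones. It still lay above every starved library in all 39 mitosis genes that fell and in 17 of the 21 cholesterol genes that fell. The position was 0.58 for lysosome genes, 0.53 for immediate early genes and 0.48 for ribosome biogenesis, where the library lay midway. These medians rest on the members past 2-fold, 9 of 40, 11 of 24 and 21 of 34. It was 0.22 for matrix proteases, 0.15 for osteoblast genes and 0.14 for WNT, Hedgehog and Notch genes, nearer the other serum libraries. Single members differed, since 3 of 13, 4 of 12 and 4 of 13 of their members past 2-fold lay nearer the starved mean. Of the 1307 rising genes 257 lay below 0.25 and 535 above 0.75, and of the 1176 falling genes 121 and 633. Among all 3779 called genes the library was nearer the starved mean for 1688 and nearer the serum mean for 2091. Those genes were called with this library in the serum group. Their choice thus favors genes where it read like serum, and the count cannot place the library.

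**Figure D3:**
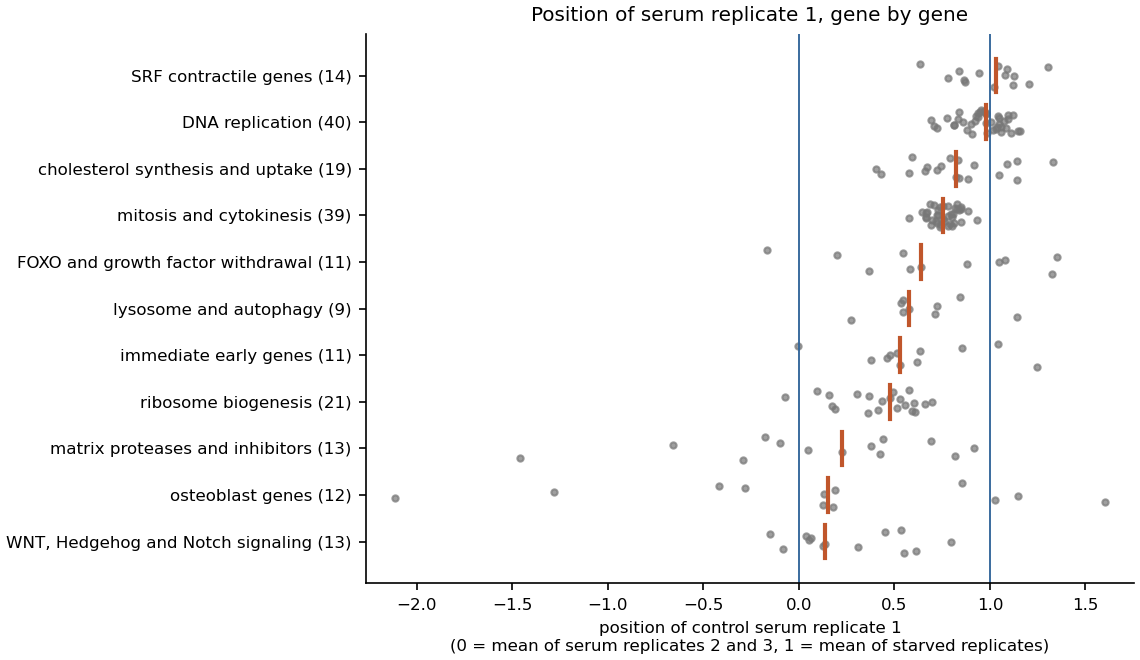
Position of control serum replicate 1 for each list member called at 2-fold or more without it (points, with their number after each list name) and the list median (bars), where 0 is the mean of serum replicates 2 and 3 and 1 the mean of the starved replicates. Medians run from 1.03 for SRF contractile genes and 0.98 for DNA replication down to 0.15 for osteoblast genes and 0.14 for WNT, Hedgehog and Notch genes.

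The NG2|EDmut line gave a smaller response in the same fit, with 385 genes (2.06%) called (136 to 247 without any one of its own libraries, 1453 without control serum replicate 1), and 821 genes (4.39%) were called for a difference between the responses of the lines. That difference depends on serum replicate 1, since 3901 genes were called for it without this library and 339 to 585 without any one of the other 11. The NG2|EDmut line is also 1 clone, made from the control clone and picked for its growth and genotype. An effect of the NG2 truncation therefore cannot be told apart from a difference between clones. Cholesterol genes went in opposite directions. Their median was -1.14 in control and 1.48 in NG2|EDmut cells, where 17 of 26 rose, and the difference was called for 24, in all of which the control value was the lower. Hmgcs1 was at 95.9, 91.3 and 131 CPM in serum and 353, 369 and 336 CPM under starvation in the NG2|EDmut line (Hmgcs1 changed by 1.73 on the log2 scale, adjusted p = 0.00666), and the control minus NG2|EDmut difference was -3.55 on the log2 scale (adjusted p of the difference = 0.000564). Immediate early and ERK feedback genes were opposite too. In NG2|EDmut cells 6 immediate early genes of 24 and 12 feedback genes of 20 fell, and the difference was called for 10 and 13. Egr2 was at 6.58, 4.69 and 7.14 CPM in serum and 2.11, 2.11 and 2.03 CPM under starvation in the NG2|EDmut line (Egr2 changed by -1.56 on the log2 scale, adjusted p = 0.0359), a difference of 4.57 (adjusted p = 0.000452).

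Mitotic genes had a median of -0.07 in the NG2|EDmut line, with 0 called by edgeR and by DESeq2 and 0 at an unadjusted p under 0.05 in edgeR. The difference was called for 28 of 40, by DESeq2 for 37 and by limma on FPKM for 4. Mki67 was at 74.7, 50.2 and 64.8 CPM in serum and 44.2, 54.9 and 52.3 CPM under starvation there. Control serum replicates 2 and 3 were at 348 and 287 CPM, but control serum replicate 1 lay below every NG2|EDmut serum library. The difference, with all libraries in the fit, was -3.20 (adjusted p = 0.0357). DNA replication genes had medians of -1.73 in control and -1.07 in NG2|EDmut cells, where 1 of 40 was called lower against 39 in control. In NG2|EDmut cells 32 of the 40 were lower at an unadjusted p under 0.05 in edgeR, and DESeq2 called 13 lower. The difference was called for none of 40, and for 34 without serum replicate 1. At an unadjusted p under 0.05 the difference was seen for 2 of the 40 (DESeq2 called 0, limma 0). For ribosome biogenesis the medians were -1.03 and -0.15, with a called difference for 17 of 34 and for 30 without serum replicate 1. For lysosome genes the medians were 0.78 and 0.22, with a called difference for 4 of 40 and for 21 without serum replicate 1.

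**Figure D4:**
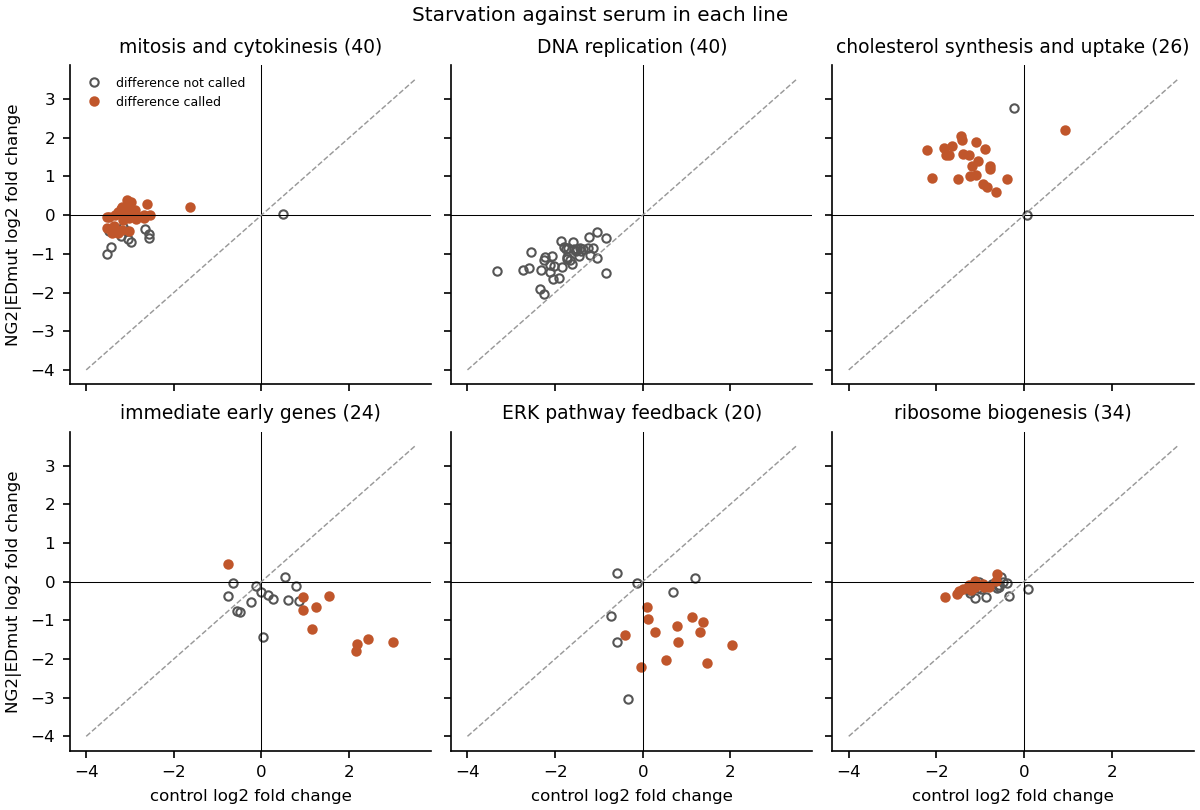
Log2 fold change of starvation against serum in control cells (x axis) and in NG2|EDmut cells (y axis) for the tested members of 6 lists, with filled points where the difference between the lines was called (adjusted p under 0.05) and the diagonal of equal change dashed. Cholesterol genes lie in the upper left but for 2 (24 of 26 differences called), mitotic genes along the zero line of NG2|EDmut cells (28 of 40), and DNA replication genes below zero in both lines (0 of 40).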

How the data were processed

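Poly(A) RNA of 12 cultures (control and NG2|EDmut lines, with and without serum, 3 replicates each) was made into TruSeq Stranded libraries and sequenced on a NovaSeq. The submitters' processing notes name FastQC, HISAT2, StringTie and edgeR. The sources used here give no version, genome build or annotation, and 99.2% of the tested genes that GENCODE M21 holds start where that annotation of GRCm38 places them. The authors deposited estimated counts per gene, made from StringTie coverage and already whole numbers, so that 1 unit is not 1 read and their scale depends on an unstated read length. The authors also deposited FPKM values from the same coverage, used here for levels and for an alternative test. The strand setting of the counting is not stated, so overlapping genes are uncertain.

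Of 29862 genes 18703 passed filterByExpr, and edgeR 4.0.16 in R 4.3.3 was fitted with TMM scaling and 1 mean per group over all 12 libraries (quasi-likelihood test, 8 residual and 3.91 prior degrees of freedom). The threshold was a Benjamini-Hochberg adjusted p under 0.05 over all tested genes, in every comparison. Log2 fold changes are starved minus serum. The responses of the lines were compared by the interaction term of the same fit. FPKM served for marker lists, with 1 FPKM as the minimum. Alternatives were DESeq2 1.42.0, limma 3.58.1 on log2(FPKM + 1) or log2(FPKM + 0.1), other scaling, filters and count scales, a replicate block, the 6 control libraries alone and leaving out each library. The scripts were tested on simulated data.

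The rule named the 15 largest rises and 15 largest falls (called, no overlap between the groups, a higher group averaging 10 CPM or more), up to 4 members of each of 43 lists by smallest adjusted p, up to 5 genes of highest FPKM called at 2-fold or more in each direction, and Cspg4. Genes named as lone exceptions or as not called were chosen after their values were seen. The comparison, the lists and the rule were chosen with earlier results of these data known. Promoters (250 bases before to 50 after the start) are from RefSeq on GRCm38.p6, searched on both strands. The values of a few genes that the rule names are not reported here.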

Additional observations from a re-analysis of the deposited data

Results flagged for a closer look

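Of the 130 genes named with values, 76 were called for a difference between the starvation responses of the lines, by the interaction term of the edgeR fit with adjusted p of 0.0494 at most. Without control serum replicate 1 all 76 were called again with the same sign. That fit called 3901 differences in place of 821, so this repeat is a weak check. Leaving out any one of the other 11 libraries gave 339 to 585 differences, and how many of the 76 those fits kept was not counted. Each line is 1 clone, so these differences are also differences between clones. Groups of 3 are too small for a check of single outlying samples. Each value is the control log2 fold change minus that of NG2|EDmut cells. A positive value means that the control log2 fold change was the higher, which can be a smaller fall.

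Genes of the cell cycle and DNA repair moved lower in control cells, with -3.20 for Mki67, -3.46 for Prc1, -3.42 for Kif23, -3.34 for Kif4, -3.32 for Cenpf, -2.63 for Knstrn, -3.99 for Pif1, -3.61 for Ankle1 and -3.71 for Pimreg. Cholesterol genes did so too, with -3.55 for Hmgcs1 and -3.06 for Stard4, and the exporter Abca1 was opposite at 2.56. Nop58 gave -1.26 and Nop2 -0.98. The one-carbon genes Mthfd1l and Shmt2 gave -0.79 and -0.69.

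Early response and feedback genes moved higher in control cells. The values were 4.57 for Egr2, 3.95 for Egr1, 3.79 for Egr3, 3.92 for Fos, 4.35 for Arc, 1.89 for Nr4a1, 3.68 for Dusp6, 3.57 for Spry4, 2.42 for Errfi1 and 2.38 for Phlda1. Genes of the FOXO list gave 1.08 for Sesn1, 1.07 for Bcl2l11 and 2.25 for Trib1. Zyx gave 1.33 and Ccn2 1.29. Ccn2 was lower under starvation in both lines, with log2 fold changes of -1.27 in control and -2.56 in NG2|EDmut cells. Among lysosomal and antioxidant genes the values were 0.96 for Ctsd, 0.69 for Lamp1, 1.08 for Gpnmb, 1.20 for Gstm1 and 1.77 for Selenop.

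In the matrix the values were 2.47 for Mmp13, 1.43 for Htra1, 1.24 for Adamts7, 1.10 for Thbs1, 0.73 for Matn2, 2.04 for Spon2, -1.52 for Col2a1 and -3.99 for Npnt. Thbs1 too was lower under starvation in both lines, at -0.81 in control and -1.92 in NG2|EDmut cells. Skeletal genes gave -1.53 for Sp7, -2.12 for Phospho1, 2.22 for Ank, 3.01 for Enpp1, -1.54 for Pth1r and -1.01 for Runx3. Signaling genes gave -1.99 for Tcf7, -2.79 for Wif1, 1.83 for Dkk3, -1.60 for Inhba, -1.76 for Bambi, -2.57 for Pdgfa, -1.20 for Fgfr2 and 1.80 for Igfbp5. Migration and guidance genes gave 0.98 for Rhob, 1.91 for Arhgap24, -1.65 for Cdc42ep3, 1.25 for Sema5a, -1.47 for Nrp2 and 1.27 for Itgb5.

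Of the remaining large changes, Car3 gave -3.99, Padi2 -6.37, Enpep 2.74, Dio2 3.08, the glutamate transporter Slc1a3 1.58, Dync1i1 2.69, Rtn4r 2.30, Plxdc1 2.15, Rab3il1 1.70, Evi2a 2.11, Try5 2.35 and Tnfrsf11b -2.80.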

How the results depend on the processing

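No call of a named gene reversed under any of the 25 alternatives run, and DESeq2, RLE scaling, no filter or a stricter one on low counts, counts divided by 4, removal of ribosomal RNA and the fits without control serum-supplemented replicate 1 kept every named call they tested. Beside 1767 rises, 2012 falls, 821 differences between lines and 385 NG2|EDmut calls, a 2-fold threshold gave 599, 838, 559 and 177, DESeq2 gave 1754 differences and 982 NG2|EDmut calls, and the 6 control libraries alone gave 394 rises and 401 falls, losing the calls of 25 of the 130 named genes. Acta2, Myl9, Tpm1 and Tubb5 lost their calls without each of the other 5 control libraries. Leaving out 1 library gave 993 to 3342 rises, 1179 to 3048 falls, 339 to 3901 differences and 136 to 1453 NG2|EDmut calls. The upper ends came without control serum-supplemented replicate 1, where the balance of rises and falls also turned over all genes and in 7 lists. ATF4 and serine genes went from 0 rises and 6 falls to 12 and 5, osteoblast genes from 3 and 8 to 8 and 7, NRF2 genes from 4 and 6 to 8 and 7, tendon and perichondrium genes from 4 and 2 to 5 and 7, amino acid transporters from 3 and 5 to 6 and 5, PDGF and FGF genes from 3 and 4 to 6 and 4, and clock genes from 2 and 3 to 7 and 3. Under every alternative 39.4% to 52.5% of the calls were rises, beside 46.8%. The deposited values are estimates, so intervals from read numbers were not computed. The cause of these shifts was not tested.

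Replicate numbers are shared by the groups but did not pair them, since the deviations of same-numbered control samples correlated at 0.094, -0.050 and -0.117. Not every sample correlated best with its own number. With the replicate number as a block 10 named genes lost their calls, and there were 998 rises, 904 falls, 204 differences and 79 NG2|EDmut calls.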

Other observations

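Further lists are given here beside the 20.2% of all tested genes that were called. Of 30 subunits of oxidative phosphorylation 4 fell (edgeR's quasi-likelihood test, adjusted p under 0.05) and none rose by edgeR, DESeq2 or limma, with 1 higher at an unadjusted p under 0.05 in edgeR. The falls were 13 without control serum replicate 1, 0 without serum replicate 2 or 3, 1 without starved replicate 1 or 3 and 2 without most single NG2|EDmut libraries. Of 22 p53 targets 3 rose and 3 fell, the rises being 6 without serum replicate 1, 0 without serum replicate 2 or 3 or starved replicate 3, and 1 without starved replicate 1. Of 20 amino acid transporters 3 rose and 5 fell, the rises being 6 without serum replicate 1 and the falls 2 without starved replicate 2 and 3 without starved replicate 3 or some single NG2|EDmut libraries. The glutamate transporter Slc1a3 was at 30.9, 22.96 and 23.9 CPM in serum and 75.7, 68.1 and 75.8 CPM under starvation (log2 fold change 1.497, adjusted p = 0.000109), and the exchanger Slc7a6 fell by 0.79 on the log2 scale. Among 29 proteoglycans 4 rose and 2 fell, with 7 and 4 without serum replicate 1, 2 and 1 without serum replicate 2, and 1 and 2 rises without starved replicates 2 and 3. The heparan sulfate proteoglycan Sdc2 (syndecan 2) rose from 627, 739.9 and 768 to 1042, 1325 and 1231 CPM (log2 fold change 0.75, adjusted p = 0.00518), and the hyaluronan receptor Cd44 fell from 155, 357 and 321 to 130.2, 141 and 132 CPM (log2 fold change -1.05, adjusted p = 0.00874), with serum replicate 1 near the starved libraries. Of 22 retinoid and steroid genes 3 rose and 2 fell, or 1 fell without serum replicate 2, starved replicate 1 or starved replicate 3. Crabp2, a carrier of retinoic acid, rose by 1.91 and Fkbp5, a target of the glucocorticoid receptor, fell by 1.17.

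Control serum replicate 1 also held transcripts that set it apart from both media. Among 9519 genes with a mean of at least 10 CPM over the 6 control libraries, 4 were at least 4-fold above each of the other 5 libraries in serum replicate 1, namely Ibsp, Col11a2, Spns2 and Loxl4, and 5 were at least 4-fold below. For each of the other 5 libraries the count above was 0, and the counts below ranged from 0 to 5, the 5 being in starved replicate 2. These genes were picked by this rule after their values were seen, and no test was made of them.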
